A study of Mus musculus with 12 samples.

Results

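The genes described here are the protein-coding neighbors of Arf6 on mouse chromosome 12. They were taken by position: each starts between 59.37 and 79.37 Mb of GRCm38, about 10 Mb to either side of Arf6, and has 10 or more counts in 6 or more libraries. Arf6, the gene Gm9887 that overlaps it, and symbols starting with Rps, Rpl, Rab, Trim, Atp5 or Atp6v were left out. The window held 110 protein-coding genes of the deposited table, of which 9 were left out by symbol and 22 had too few counts. The remaining 79 genes, of 16225 tested in the whole series, were compared between 6 tumors with intact Arf6 and 6 Arf6-null tumors. Of these 79 genes, 5 (6.33%, against 1.15% of all tested genes) passed the test for a difference between genotypes at an adjusted p under 0.05. Vcpkmt and Fntb rose in Arf6-null tumors and Nin, Plekhg3 and Tmem30b fell. Tmem30b reached 10 counts in wild-type libraries alone, so a low Arf6-null level was part of how it entered the set. Without it 4 of 78 genes passed (5.13%). All 5 are on the side of Arf6 with higher coordinates, where 63 of the 79 genes lie. Vcpkmt is the first gene of the set on that side. None of the 16 genes on the other side passed, although DESeq2 and limma-voom, used as alternatives, each called 2 of them. The difference between the sides was not tested.

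The samples are bulk RNA from mouse melanoma tumors. Both groups carry BrafCA, a Braf allele that recombination by Cre switches to an oncogenic form, and Cdkn2a f/f, floxed alleles of a tumor suppressor gene. The 6 tumors called Arf6-null carry Arf6 f/f besides, and the 6 called wild type do not. The labels give no age, sex, strain, Cre driver or tumor site, and do not say whether each tumor came from its own animal, so the p-values reflect only how these samples vary, which may be technical. Library totals ran from 22211738 to 30326419 counts in wild type and from 21007954 to 45688253 in Arf6-null. Library numbers 1 to 6 are wild type and 19 to 24 are Arf6-null, so a round of preparation, if there was more than 1, and genotype cannot be told apart.

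Arf6 encodes a small GTPase that moves membrane and its cargo between the cell surface and endosomes. Its neighbors on the chromosome are not a pathway: they include subunits of ubiquitin ligases, DNA replication factors, enzymes of sugar and lipid attachment, regulators of small GTPases, the hypoxia factor Hif1a and the muscle transcription factor Six4. Genes that lie close together are inherited together, so breeding for a modified allele also passes on the stretch of chromosome around it, and neighbors can share regulatory DNA. The strain of origin of this stretch is not given in the sources used here, and its part in the values below was not tested.

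Arf6 itself, at 69372150 to 69373783 on the plus strand, checks the labels. It ran from 84.2 to 147 CPM (median 107) with intact Arf6 and from 12.2 to 22.5 CPM (median 18.7) without, with no overlap (log2 difference -2.60 with an SE of 0.18, adjusted p = 1.01e-04 by edgeR). CPM are counts scaled for the size of the library, and a log2 difference is positive where Arf6-null tumors were higher. Of 6 melanocyte markers only Mitf and Pmel had 10 or more counts in every library. Mlana had none, Tyr and Dct had at most 2 and 1 and Sox10 at most 33, so the labelled melanoma is not marked by its usual pigment genes. Skeletal muscle markers, 8 of 8 of which were measured, reached sums of 1902, 1209 and 1850.1 CPM in 3 wild-type libraries (replicates 3, 4 and 5), against between 3.57 and 177 CPM in the other 9 libraries. Of these markers 1 passed, Pvalb, which fell. The 6 fibroblast markers summed to between 5274 and 20414 CPM with intact Arf6 and between 1801 and 11948 CPM without, and their part in the results was not tested. The 4 Y-linked genes Ddx3y, Eif2s3y, Kdm5d and Uty summed to under 1 CPM in 4 libraries (wild-type replicates 3, 5 and 6, Arf6-null replicate 6), to 22.3 CPM in wild-type replicate 1 and to between 148 and 248 CPM in the rest. In bulk samples, fewer cells of a type and less RNA per cell cannot be told apart.

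Vcpkmt changed most clearly. It encodes the lysine methyltransferase that modifies VCP, an ATPase that extracts proteins for degradation, and lies on the minus strand of chromosome 12 at 69577628 to 69583028 (GRCm38), 0.21 Mb from Arf6. Its level ran from 11.9 to 19.7 CPM (median 13.9) with intact Arf6 and from 30.3 to 41.7 CPM (median 34.4) without. Every Arf6-null library lay above every wild-type library. The means were 14.9 ± 3.26 CPM with intact Arf6 and 34.8 ± 4.14 CPM without (SD over 6 libraries), an increase of 2.33-fold (log2 difference 1.22 with an SE of 0.15, adjusted p = 0.00480 by edgeR). Of all tested genes 1.15% passed in either direction, 0.586% as higher and 0.561% as lower in Arf6-null tumors. When 1 library at a time was left out, Vcpkmt passed all 12 times, with adjusted p from 0.00314 to 0.0163. Without the 3 muscle-rich wild-type libraries its log2 fold change was 1.20 (edgeR adjusted p = 0.0295), and adjusting for the Y-linked genes gave 1.07 (edgeR adjusted p = 0.00398). Adjusting for the muscle markers gave 1.20, which no longer passed (edgeR adjusted p = 0.0742). No flanking gene passed in that edgeR fit, where 0.0801% of all tested genes passed. An unadjusted p under 0.05 was found there for 17 of the 79 genes and for 13.1% of all tested genes. No annotated transcript of another gene shares a stretch of 50 bases with it, and no annotated gene overlaps it.

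Fntb, the beta subunit of the farnesyltransferase that attaches a lipid anchor to Ras and other proteins, also rose. It ran from 19.8 to 26.8 CPM (median 21.3) with intact Arf6 and from 28.7 to 38.2 CPM (median 32.6) without, and the genotypes did not overlap. The means were 21.9 ± 2.60 CPM with intact Arf6 and 32.9 ± 3.53 CPM without, 1.5-fold (log2 difference 0.59 with an SE of 0.10, adjusted p = 0.0292 by edgeR). Its annotated span of 76765589 to 76921412 on the plus strand, 7.39 Mb from Arf6, overlaps Churc1, Gpx2 and Rab15, and 5.27% of its stretches of 50 bases also occur in transcripts of Churc1, so some reads could belong to either gene. Churc1, a zinc finger gene, was at 22.5 ± 2.21 CPM with intact Arf6 and 26.8 ± 3.29 CPM without and did not pass (log2 difference 0.25 with an SE of 0.11, adjusted p = 0.182 by edgeR). Max, the binding partner of Myc that is the next gene of the set, was at 88.8 ± 7.11 CPM with intact Arf6 and 94.1 ± 8.73 CPM without (log2 difference 0.08 with an SE of 0.09, adjusted p = 0.592 by edgeR).

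Nin, which encodes ninein, a protein that anchors microtubules at the centrosome, fell. It lies at 70011435 to 70113717 on the minus strand, 0.64 Mb from Arf6, and ran from 60.2 to 81.8 CPM (median 66.3) with intact Arf6 and from 42.0 to 56.8 CPM (median 46.1) without. All 6 Arf6-null libraries were below all 6 wild-type libraries. The means were 68.7 ± 8.51 CPM with intact Arf6 and 47.8 ± 6.5 CPM without, 1.44-fold lower (log2 difference -0.52 with an SE of 0.11, adjusted p = 0.0453 by edgeR).

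Plekhg3, a guanine nucleotide exchange factor that binds actin, fell from 65.1 ± 11.9 to 35.1 ± 6.96 CPM, 1.86-fold (log2 difference -0.89 with an SE of 0.16, adjusted p = 0.0292 by edgeR). It lies at 76530891 to 76580488 on the plus strand, 7.16 Mb from Arf6, where its annotated 3′ end meets that of Sptb on the other strand. Its level ran from 41.3 to 73.9 CPM (median 68.3) with intact Arf6 and from 27.4 to 47.5 CPM (median 34.2) without. Wild-type replicate 5, at 41.3 CPM, was below Arf6-null replicate 6 at 47.5 CPM, and the other 5 wild-type libraries lay at or above 67.9 CPM.

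Tmem30b, a partner subunit of the flippases that move phospholipids across membranes, had the largest decrease of the set and few counts. It lies at 73543402 to 73546392 on the minus strand, 4.17 Mb from Arf6. It had 14 to 72 counts per wild-type library and 0 to 8 per Arf6-null library. On the CPM scale it ran from 0.522 to 2.37 CPM (median 0.995) with intact Arf6 and from 0 to 0.201 CPM (median 0.145) without, without overlap (log2 difference -3.40 with an SE of 0.65, adjusted p = 0.0349 by edgeR). It entered the set through the wild-type libraries alone, since no Arf6-null library reached 10 counts, so a low Arf6-null level was part of how it came to be counted. The other members close to that limit were Mdga2, Lrfn5 and 4930447C04Rik, also with 10 counts in exactly 6 libraries, and Ppp1r36, with 10 counts in 5 libraries, fell just outside it. In all, 72 of the 79 genes had 10 or more counts in every library.

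The calls of Fntb, Nin, Plekhg3 and Tmem30b depended on single libraries. Each passed without wild-type replicate 2, wild-type replicate 5 or Arf6-null replicate 6. Nin and the pair Plekhg3 and Fntb also passed without Arf6-null replicate 5, and Tmem30b and the same pair without Arf6-null replicate 3. Without any of wild-type replicates 1, 3, 4 and 6 or Arf6-null replicates 1, 2 and 4 none of the 4 passed. Where they missed the threshold with 1 library left out, the edgeR adjusted p lay between 0.0547 and 0.104. Without the 3 muscle-rich wild-type libraries the log2 fold changes were 0.53 for Fntb, -0.45 for Nin, -0.97 for Plekhg3 and -3.49 for Tmem30b, with edgeR adjusted p of 0.172, 0.206, 0.0604 and 0.113. Fewer libraries enter that fit, and 0.206% of all genes passed in it. Adjusting for the Y-linked genes, Tmem30b passed beside Vcpkmt (edgeR adjusted p = 0.0201), where 0.191% of all genes did.

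**Figure D1:**
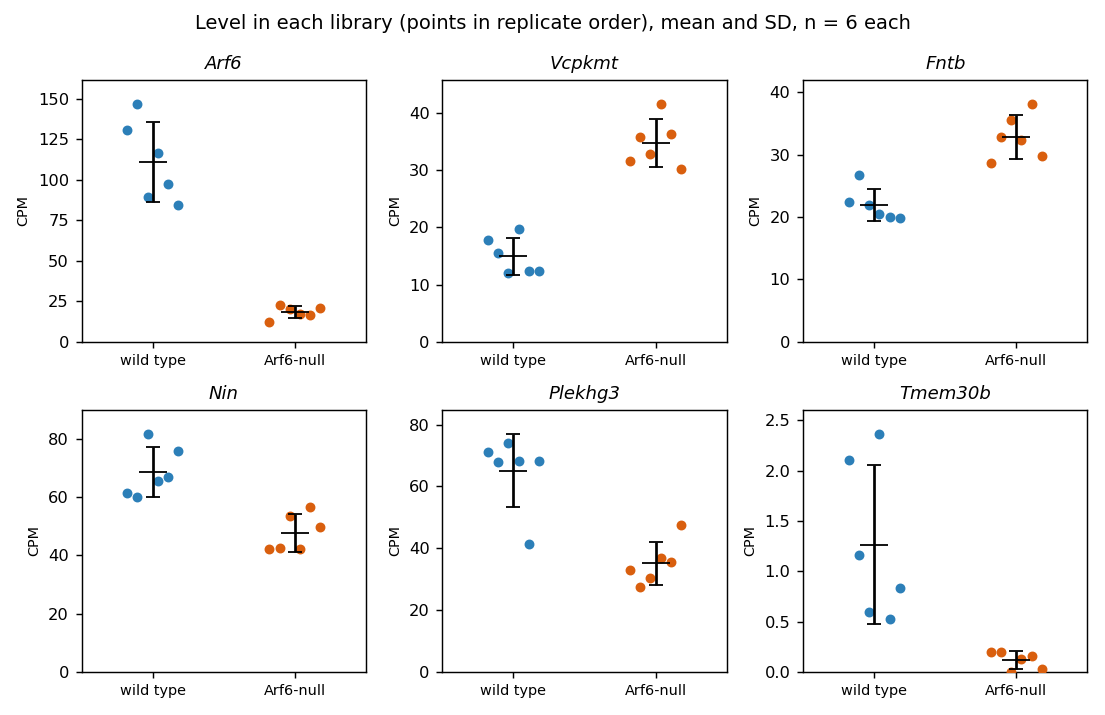
Normalized level (CPM, linear axes from 0) of Arf6 and of the 5 flanking genes that passed the test, by genotype. Points are the 6 libraries of a genotype in replicate order, the horizontal bar is the mean and the whiskers are the SD. Vcpkmt and Fntb were higher and Nin and Tmem30b lower in each Arf6-null library than in any wild-type library, while for Plekhg3 wild-type replicate 5 at 41.3 CPM lies within the Arf6-null range.

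Promoters are shown for 4 of the 5 called genes, so that the sequence at an annotated start of each can be seen. Plekhg3 had no entry. RefSeq sequences of GRCm38.p6, from 250 bases before to 50 bases after a transcription start, were matched by symbol for 70 of the 79 genes. For a gene with several starts the one closest to the 5′ end of the GENCODE gene was taken. The promoters run 5′ to 3′ along the gene's strand: Vcpkmt at chr12:69582968-69583267 (minus strand), Nin at chr12:70111986-70112285 (minus strand), Tmem30b at chr12:73546346-73546645 (minus strand) and Fntb at chr12:76837217-76837516 (plus strand). Capitals mark matches to any of 6 motifs searched on both strands: the TATA box TATAAA, the GC box GGGCGG, the CCAAT box CCAAT, the E-box CACGTG, the NRF1 core GCATGCGC and the ETS core CGGAAG.
Vcpkmt: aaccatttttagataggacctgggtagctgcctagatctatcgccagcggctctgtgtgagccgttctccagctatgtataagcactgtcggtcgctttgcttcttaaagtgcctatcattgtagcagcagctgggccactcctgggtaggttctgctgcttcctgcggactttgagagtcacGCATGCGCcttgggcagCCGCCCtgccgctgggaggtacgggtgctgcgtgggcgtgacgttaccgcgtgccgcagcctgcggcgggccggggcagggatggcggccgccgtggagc
Fntb: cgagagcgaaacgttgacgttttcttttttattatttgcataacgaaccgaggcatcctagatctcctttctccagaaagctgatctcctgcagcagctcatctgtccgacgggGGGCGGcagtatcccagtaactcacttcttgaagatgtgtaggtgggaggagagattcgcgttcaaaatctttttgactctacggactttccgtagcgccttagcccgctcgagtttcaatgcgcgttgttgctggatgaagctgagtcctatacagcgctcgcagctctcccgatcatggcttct
Nin: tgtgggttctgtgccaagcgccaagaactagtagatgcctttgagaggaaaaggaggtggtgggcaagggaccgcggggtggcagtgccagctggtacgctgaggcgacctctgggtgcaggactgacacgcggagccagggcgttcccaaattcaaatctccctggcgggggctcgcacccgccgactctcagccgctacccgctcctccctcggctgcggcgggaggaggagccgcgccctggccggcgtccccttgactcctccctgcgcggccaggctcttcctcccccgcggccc
Tmem30b: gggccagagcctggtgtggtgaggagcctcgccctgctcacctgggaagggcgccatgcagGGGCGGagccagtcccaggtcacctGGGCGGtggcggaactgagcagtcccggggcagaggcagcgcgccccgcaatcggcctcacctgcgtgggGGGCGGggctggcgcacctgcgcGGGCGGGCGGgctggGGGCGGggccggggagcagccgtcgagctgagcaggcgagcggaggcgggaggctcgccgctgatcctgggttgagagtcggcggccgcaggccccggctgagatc

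The promoter of Vcpkmt holds 1 NRF1 core, a motif found in 2.71% of 32817 RefSeq promoters of this length, and 1 GC box, found in 35.6%. The promoter of Tmem30b holds 6 GC boxes, 2 of which overlap, that of Fntb holds 1, and that of Nin has none of the 6 motifs. No TATA box, CCAAT box, E-box or ETS core is in these 4 windows. Those motifs occur in 13.6%, 37.4%, 7.15% and 16.9% of all promoters. The observed over expected frequency of CpG was 0.805 for Vcpkmt, 1.11 for Fntb, 0.707 for Nin and 0.717 for Tmem30b, against a median of 0.383 over all promoters. The start used by RefSeq for Fntb lies 71878 bases downstream of the 5′ end of the GENCODE gene, and that for Nin 1682 bases. A match is a description of the letters, and counts per gene do not show which start was used.

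The 12 nearest genes, 7 on one side of Arf6 and 5 on the other, included Vcpkmt and 11 genes that did not pass. Nemf, a factor that tags incomplete proteins on stalled ribosomes, is the nearest, 0.062 Mb away. It was at 75.1 ± 10.4 CPM with intact Arf6 and 85.7 ± 11.4 CPM without (log2 difference 0.19 with an SE of 0.11, adjusted p = 0.334 by edgeR). Klhdc2 and Klhdc1, substrate receptors of cullin ubiquitin ligases that recognize the carboxyl ends of proteins, follow at 0.075 and 0.13 Mb. Klhdc2 was at 122 ± 18.2 CPM with intact Arf6 and 139 ± 16 CPM without (log2 difference 0.20 with an SE of 0.12, adjusted p = 0.324 by edgeR).

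Klhdc1 was the closest to passing among these 11. It ran from 5.21 to 10.5 CPM (median 7.35) with intact Arf6 and from 9.25 to 18.1 CPM (median 13.2) without. In 5 Arf6-null libraries it was above all wild-type libraries, and Arf6-null replicate 6, at 9.25 CPM, was below wild-type replicate 2 at 10.5 CPM (log2 difference 0.85 with an SE of 0.20, adjusted p = 0.0566 by edgeR). It passed without either of these 2 libraries, with adjusted p of 0.0296 and 0.0305.

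On the same side, Pole2, a subunit of the leading-strand DNA polymerase epsilon, was at 12.8 ± 2.80 CPM with intact Arf6 and 12.9 ± 2.47 CPM without, with an adjusted p of 0.994. Dnaaf2, needed to assemble the dynein arms of cilia, was at 2.72 ± 0.533 CPM with intact Arf6 and 3.47 ± 0.716 CPM without (adjusted p = 0.330), and 68.1% of its stretches of 50 bases are shared with other annotated transcripts, so its counts are uncertain. Mgat2, an enzyme of complex N-glycan synthesis, was at 113 ± 24.3 CPM with intact Arf6 and 93.1 ± 6.73 CPM without (adjusted p = 0.230). Lrr1, a ligase subunit that helps to unload the replicative helicase, was at 2.23 ± 0.814 CPM with intact Arf6 and 2.12 ± 0.817 CPM without (adjusted p = 0.913). The genotypes overlapped in all 4.

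On the side of Vcpkmt, Sos2, a guanine nucleotide exchange factor for Ras that is the next gene of the set, was at 37.4 ± 7.16 CPM with intact Arf6 and 35.3 ± 5.78 CPM without (log2 difference -0.08 with an SE of 0.14, adjusted p = 0.765 by edgeR). Cdkl1, a kinase of the cyclin-dependent kinase-like family, was at 0.750 ± 0.401 CPM with intact Arf6 and 1.58 ± 0.938 CPM without (log2 difference 1.07 with an SE of 0.43, adjusted p = 0.161 by edgeR), and its highest level, 3.36 CPM, was in Arf6-null replicate 3. Map4k5, a kinase upstream of JNK signaling, was at 104 ± 23.6 CPM with intact Arf6 and 110.0 ± 15.4 CPM without (log2 difference 0.08 with an SE of 0.15, adjusted p = 0.781 by edgeR). Each of these 3 genes overlapped between genotypes.

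**Figure D2:**
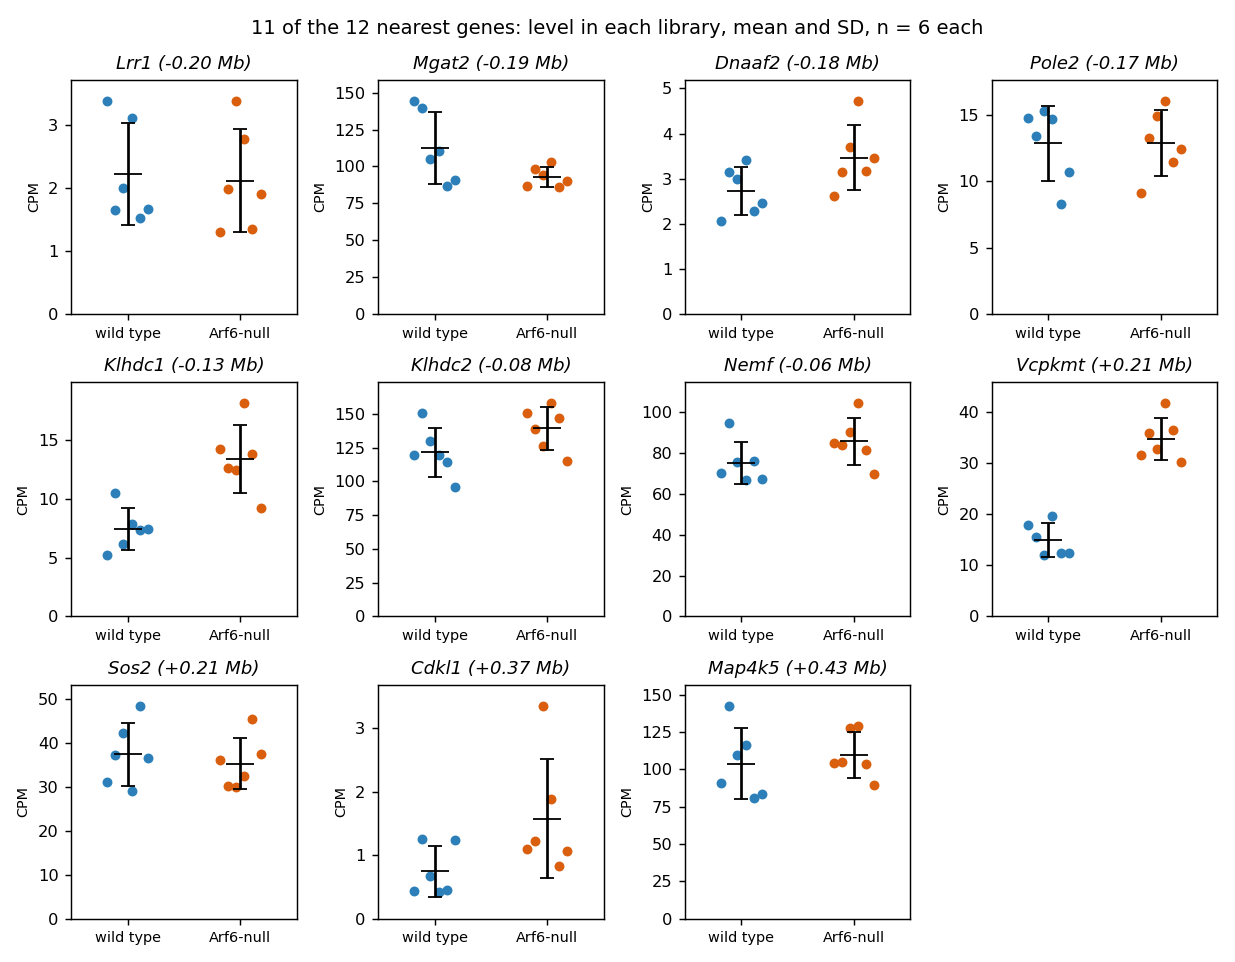
Normalized level (CPM, linear axes from 0) of 11 of the 12 flanking genes nearest to Arf6, in order along the chromosome, with the signed distance of the gene start from the Arf6 start in each title. Points are the 6 libraries of a genotype, the bar is the mean and whiskers are the SD. Of the genes shown only Vcpkmt separates the genotypes, at 14.9 against 34.8 CPM, while Klhdc1 overlaps by 1 library of each genotype.

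Change with distance from Arf6 was described over 4 bins. Over all tested genes 1.15% passed, 23.4% had an unadjusted p under 0.05, and limma-voom called 5.74%. DESeq2 called 1894 of these 16225 genes, and 11.0% of the 20208 genes to which it gave an adjusted p. Within 1 Mb, 2 of 16 genes passed (12.5%), Vcpkmt and Nin. From 1 to 2.5 Mb none of 9 passed at an edgeR adjusted p under 0.05, although 4 (44.4%) had an unadjusted p under 0.05 and DESeq2 and limma-voom each called 2. From 2.5 to 5 Mb 1 of 25 passed, Tmem30b, which entered the set through the wild-type libraries alone. Beyond 5 Mb 2 of 29 passed (6.90%), Plekhg3 and Fntb. The median size of the log2 fold change, without its sign, was 0.29, 0.20, 0.20 and 0.25 in the 4 bins in order of distance, against 0.25 over all tested genes. These medians show no steady decline with distance. The signed medians were 0.14, 0.11, -0.19 and -0.06, against -0.03 over all tested genes.

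Over the 79 genes as a whole, 5 passed (6.33%) against 1.15% of all tested genes. With an unadjusted p under 0.05 there were 22 (27.8%) against 23.4%, and 8 (10.1%) had a change of more than 1 on the log2 scale against 11.3%. The genotypes did not overlap in 4 genes (5.06%) against 2.36%, namely Vcpkmt, Fntb, Nin and Tmem30b. Without Tmem30b, whose low Arf6-null counts were part of how it entered the set, 4 of 78 genes passed (5.13%) and 3 did not overlap (3.85%). Positive and negative log2 fold changes were even, at 40 and 39. The share with an unadjusted p under 0.05 and the share with a large change were thus near those of all genes. No test was made of the set against other genes.

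The set is lopsided. On the side of lower coordinates lie 16 genes, 7 of them within 1 Mb and 8 from Gm527 to Mdga2 farther out, with Lrfn5 alone beyond a gap of 3.39 Mb. None of the 16 passed at an edgeR adjusted p under 0.05, 2 had an unadjusted p under 0.05 (Klhl28 and Klhdc1), and DESeq2 and limma-voom each called these 2. On the side of higher coordinates lie 63 genes, of which 5 passed (7.94%, against 1.15% of all tested genes) and 20 had an unadjusted p under 0.05 (31.7%, against 23.4%). The 5 include Tmem30b, which entered the set through the wild-type libraries alone. DESeq2 and limma-voom called 10 and 7 there, so by these tools the called genes were on both sides. The difference between the sides was not tested. Klhl28, a cullin adaptor 4.43 Mb from Arf6, was at 24.4 ± 1.78 CPM with intact Arf6 and 17.5 ± 3.30 CPM without (log2 difference -0.48 with an SE of 0.13, adjusted p = 0.0714 by edgeR). Mdga2, a synaptic adhesion gene, was at 1.49 ± 1.18 CPM with intact Arf6 and 0.255 ± 0.364 CPM without (log2 difference -2.56 with an SE of 1.21, adjusted p = 0.229 by edgeR).

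**Figure D3:**
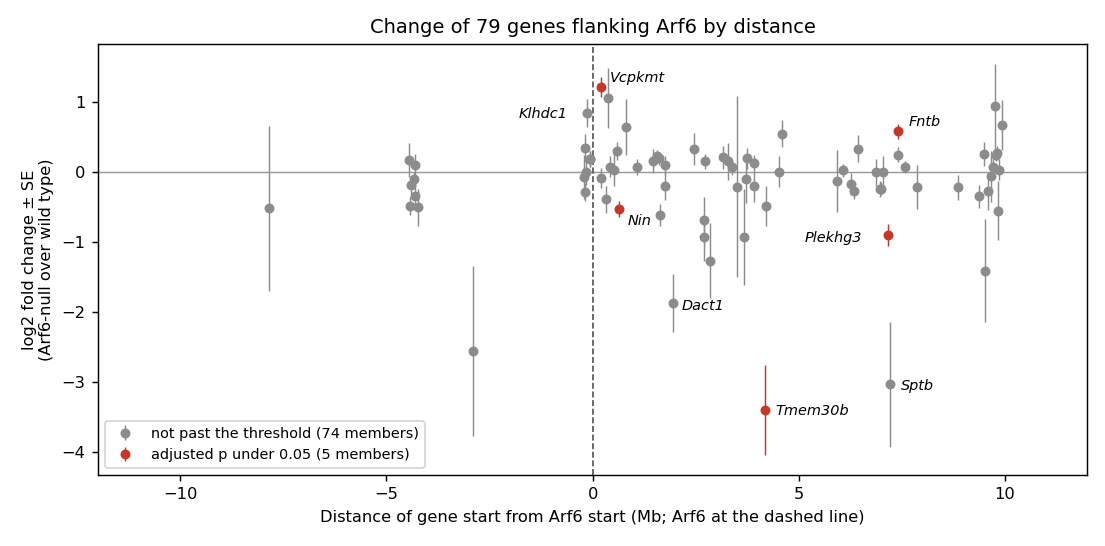
Log2 fold change (Arf6-null over wild type, with the SE from edgeR as whiskers) of each of the 79 genes against the distance in Mb of its start from that of Arf6. Red points passed at an adjusted p under 0.05. The 5 red points, from Vcpkmt at 1.22 to Tmem30b at -3.40, are spread over 0.21 to 7.39 Mb on the right, while the median size of a change over the whole set was 0.23.

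Farther along chromosome 12, protein-coding genes under the same count rule were taken in steps of 10 Mb. Beyond 10 Mb on either side 1 of 378 genes passed by edgeR (0.265%), Galc, a lysosomal galactosylceramidase, and 23.8% had an unadjusted p under 0.05. DESeq2 and limma-voom called 48 and 28 of these 378 genes, and 12 and 9 of the 79 flanking genes. Of all 13975 protein-coding genes under this count rule they called 1725 and 853. In the 10 Mb beyond the window on the side where the called genes lie, none of 84 passed by edgeR, 16 had an unadjusted p under 0.05, and DESeq2 and limma-voom called 7 and 4. On the other side none of 42 passed, 16 had an unadjusted p under 0.05, and these tools called 7 and 3. The genes next to the window, Fbxo33 and Zfp36l1, at 10.17 and 10.74 Mb, had log2 fold changes of 0.38 and -0.36 (adjusted p = 0.245 and 0.237). Around the other engineered genes, whose alleles both groups share, 1 of 103 genes within 10 Mb of Braf passed by edgeR (Ptn). There 25 had an unadjusted p under 0.05, and DESeq2 and limma-voom called 11 and 3. Within 10 Mb of Cdkn2a none of 43 passed by edgeR, 11 had an unadjusted p under 0.05, and DESeq2 and limma-voom called 3 and 0. In the Cdkn2a window 35 of 43 log2 fold changes were negative, with a median of -0.70, and 32.6% were above 1 in size. Among the 79 genes around Arf6, 39 were negative and 10.1% were above 1 in size, against 11.3% of all tested genes. The differences between these windows were not tested.

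**Figure D4:**
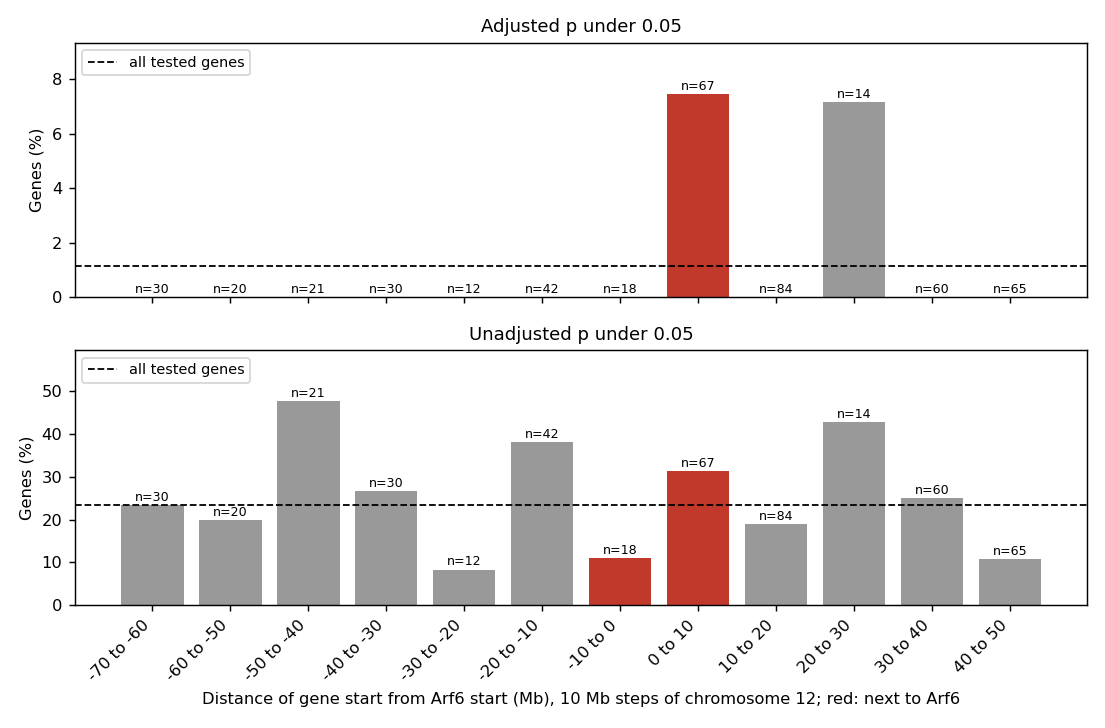
Share of protein-coding genes of chromosome 12 that passed at an adjusted p under 0.05 (top) and at an unadjusted p under 0.05 (bottom), in 10 Mb steps from the start of Arf6, with the number of genes above each bar and the share over all tested genes as a dashed line. The red steps adjoin Arf6 and hold the excluded ribosomal and similar symbols besides. In the step from 0 to 10 Mb 7.46% of 67 genes passed, and the unadjusted shares vary from 8.33% to 47.6% with no step next to Arf6 at either end.

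By function, the genes were grouped in 9 lists. Of 9 genes listed under ubiquitin ligases and protein quality control, Vcpkmt rose and 8 did not pass, where 1.15% of all tested genes did. The list is a loose one that also holds Sav1 and Fkbp3, both with positive log2 fold changes. In it 7 log2 fold changes were positive, with a median of 0.19, against -0.03 over all tested genes. In this list 4 had an unadjusted p under 0.05 (44.4%, against 23.4% of all tested genes), and DESeq2 and limma-voom called 3 and 3. Besides Vcpkmt and Klhdc1, Sav1, a scaffold of the Hippo kinases, was at 115 ± 20.1 CPM with intact Arf6 and 143 ± 18.5 CPM without (log2 difference 0.31 with an SE of 0.13, adjusted p = 0.171 by edgeR). Of 6 genes of DNA replication, repair and chromosome segregation, Nin fell and the median was -0.16, while 1 had an unadjusted p under 0.05, and DESeq2 and limma-voom called 1 and 1. Fancm, a DNA translocase of the Fanconi anemia pathway, was at 15.8 ± 3.30 CPM with intact Arf6 and 12.5 ± 2.26 CPM without (log2 difference -0.33 with an SE of 0.17, adjusted p = 0.273 by edgeR). In a loose list of 5 genes under attachment of sugars, lipids or membrane anchors, Fntb rose and the median was -0.21. That median includes Gphn, at -0.22, which is not an enzyme of such attachment. Of the 5, 1 had an unadjusted p under 0.05, and DESeq2 and limma-voom called 1 and 1.

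None of 9 transcription genes passed (median -0.09), while 3 had an unadjusted p under 0.05, and DESeq2 and limma-voom called 0 and 0. Among all tested genes 1.15% passed, 23.4% had an unadjusted p under 0.05 and limma-voom called 5.74%. DESeq2 called 11.0% of the genes to which it gave an adjusted p. Snapc1, part of the complex that starts small nuclear RNA genes, was at 29.4 ± 7.39 CPM with intact Arf6 and 43.1 ± 10.6 CPM without (log2 difference 0.55 with an SE of 0.19, adjusted p = 0.123 by edgeR). Zbtb1, a zinc finger factor needed for lymphoid development, was at 55.9 ± 5.28 CPM with intact Arf6 and 47.6 ± 5.26 CPM without (log2 difference -0.23 with an SE of 0.09, adjusted p = 0.165 by edgeR). Hif1a, the oxygen-regulated factor that drives glycolysis genes, was at 193 ± 65.6 CPM with intact Arf6 and 194 ± 49.0 CPM without (log2 difference 0.01 with an SE of 0.22, adjusted p = 0.983 by edgeR), and its RNA was highest in wild-type replicate 2, at 315 CPM, and in Arf6-null replicate 5, at 287 CPM.

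None of 4 genes of RNA processing and translation passed (median 0.16, none with an unadjusted p under 0.05 and none called by DESeq2). Among all tested genes 1.15% passed and 23.4% had an unadjusted p under 0.05, and DESeq2 called 11.0% of genes with an adjusted p. Eif2s1, the translation factor subunit that stress kinases phosphorylate, was at 107 ± 22.4 CPM with intact Arf6 and 129 ± 28.2 CPM without (adjusted p = 0.367). None of 5 genes of secretory and endosomal traffic passed, where Arf6 itself acts (median 0.04, 2 with an unadjusted p under 0.05 and none called by DESeq2). Vti1b, a SNARE of late endosomes, was at 67.5 ± 7.43 CPM with intact Arf6 and 80.3 ± 6.58 CPM without (log2 difference 0.25 with an SE of 0.09, adjusted p = 0.133 by edgeR). Rtn1, a reticulon that shapes the endoplasmic reticulum, was at 2.64 ± 1.61 CPM with intact Arf6 and 1.09 ± 0.757 CPM without (log2 difference -1.26 with an SE of 0.54, adjusted p = 0.183 by edgeR).

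Of 8 kinases, phosphatases and GTPase regulators, Plekhg3 fell and the median was -0.03, while 2 had an unadjusted p under 0.05, and DESeq2 and limma-voom called 1 and 1. Among all tested genes 1.15% passed, 23.4% had an unadjusted p under 0.05 and limma-voom called 5.74%. DESeq2 called 11.0% of genes with an adjusted p. None of 9 metabolic enzymes and transporters passed (median -8.08e-04), although 2 had an unadjusted p under 0.05 and DESeq2 called Rdh11. Rdh11, a retinol dehydrogenase, was at 31.0 ± 3.51 CPM with intact Arf6 and 37.7 ± 3.80 CPM without (log2 difference 0.28 with an SE of 0.10, adjusted p = 0.124 by edgeR), and Sgpp1, which removes phosphate from sphingosine 1-phosphate, at 49.2 ± 6.36 CPM with intact Arf6 and 40.7 ± 4.71 CPM without (log2 difference -0.27 with an SE of 0.11, adjusted p = 0.156 by edgeR). Of 10 genes of the cytoskeleton, cell polarity and cilia, Nin fell and the median was -0.12, while 2 had an unadjusted p under 0.05, and DESeq2 and limma-voom called 2 and 1. The levels per length were highest for Vti1b, Mgat2 and Hif1a, at 45.8, 39.4 and 32.8 CPM per kb of annotated exon over the 12 libraries, against 24.2 for Vcpkmt and 0.231 for Tmem30b.

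Sptb, a spectrin of red cells and muscle, was highest in the muscle-rich libraries. It was at 7.97, 4.99 and 30.9 CPM in the muscle-rich wild-type replicates 3, 4 and 5, at most 1.21 CPM in the other wild-type libraries, and from 0.452 to 1.75 CPM (median 0.771) in the Arf6-null libraries. Over all 12 libraries it did not pass (log2 difference -3.03 with an SE of 0.89, adjusted p = 0.0821 by edgeR). Without the muscle-rich libraries it was -0.11, and adjusting for the muscle markers gave 0.30. Six4 was at 36.1 ± 25.1 CPM with intact Arf6 and 33.9 ± 10.6 CPM without and did not pass (adjusted p = 0.902 by edgeR). It was at 86.9 CPM in wild-type replicate 3 alone. In the muscle-rich replicates 4 and 5 it was at 27.8 and 27.7 CPM, and in the other wild-type libraries from 21.7 to 29.9 CPM.

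Other tools called more of the flanking genes. DESeq2 called 12 of the 79 (15.2%), where 11.0% of all genes with an adjusted p were called, and limma-voom 9 (11.4%), where 5.74% were. Of 13975 protein-coding genes under the same count rule DESeq2 called 1725 and limma-voom 853. Both added Klhl28, Klhdc1, Arid4a and Dact1 to the 5 genes, and DESeq2 also Gpr135, Sptb and Rdh11. Dact1, a scaffold that binds Dishevelled in Wnt signaling, ran from 3.41 to 14.7 CPM (median 9.18) with intact Arf6 and from 0.792 to 4.70 CPM (median 2.26) without. Wild-type replicate 2, at 3.41 CPM, was below Arf6-null replicate 6 at 4.70 CPM, and no other libraries crossed (log2 difference -1.87 with an SE of 0.41, adjusted p = 0.0525 by edgeR). Of its stretches of 50 bases 33.7% also occur in the overlapping gene 4930474H06Rik. Arid4a, a chromatin protein that binds the retinoblastoma protein, was at 49.6 ± 10.3 CPM with intact Arf6 and 32.5 ± 5.48 CPM without (log2 difference -0.61 with an SE of 0.16, adjusted p = 0.0680 by edgeR).

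Among the 74 genes that did not pass, some varied widely within a genotype. Pygl, a glycogen phosphorylase, ran from 7.07 to 30.1 CPM (median 12) with intact Arf6 and from 11.9 to 44.8 CPM (median 16.7) without (log2 difference 0.65 with an SE of 0.40, adjusted p = 0.353 by edgeR). Arg2, the mitochondrial arginase, ran from 0.170 to 3.18 CPM (median 0.819) with intact Arf6 and from 0.784 to 3.46 CPM (median 2.0) without (log2 difference 0.94 with an SE of 0.61, adjusted p = 0.373 by edgeR). Its level was at its lowest in wild-type replicate 3 and at its highest in Arf6-null replicate 5, and the genotypes overlapped in both genes. Of the stretches of 50 bases of Arg2 17.1% also occur in transcripts of the overlapping gene Vti1b. The mean level of Vti1b was 67.5 CPM with intact Arf6 and 80.3 CPM without, so some reads counted for Arg2 could belong to it. Rhoj, a small GTPase of endothelial cells, ran from 18.2 to 106 CPM (median 45.8) with intact Arf6 and from 17.5 to 83.8 CPM (median 56.2) without (log2 difference -0.12 with an SE of 0.44, adjusted p = 0.889 by edgeR). Plek2, a pleckstrin that organizes actin, ran from 0.170 to 4.13 CPM (median 0.585) with intact Arf6 and from 0.148 to 0.627 CPM (median 0.377) without (log2 difference -1.40 with an SE of 0.73, adjusted p = 0.270 by edgeR). Wild-type replicate 1 held its highest level. The 8 genes with a log2 difference above 1 in size were Vcpkmt and Tmem30b, which passed, and Cdkl1, Dact1, Rtn1, Mdga2, Sptb and Plek2, which did not.

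There are 7 pairs of flanking genes on opposite strands whose 5′ ends lie within 1 kb. None of their genes passed by edgeR, where 1.15% of all tested genes did, so none would be usual for so few genes. An unadjusted p under 0.05 was found for Klhl28 and Zbtb1 alone, against 23.4% of all tested genes. DESeq2 and limma-voom called Klhl28 of these. The pairs were not tested as a set. The log2 fold changes had the same sign in 4 of the 7. Zbtb25 and Zbtb1 were both at -0.23, while L3hypdh and Jkamp were at -0.69 and 0.16, and Klhl28 and Togaram1 at -0.48 and -0.19.

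**Figure D5:**
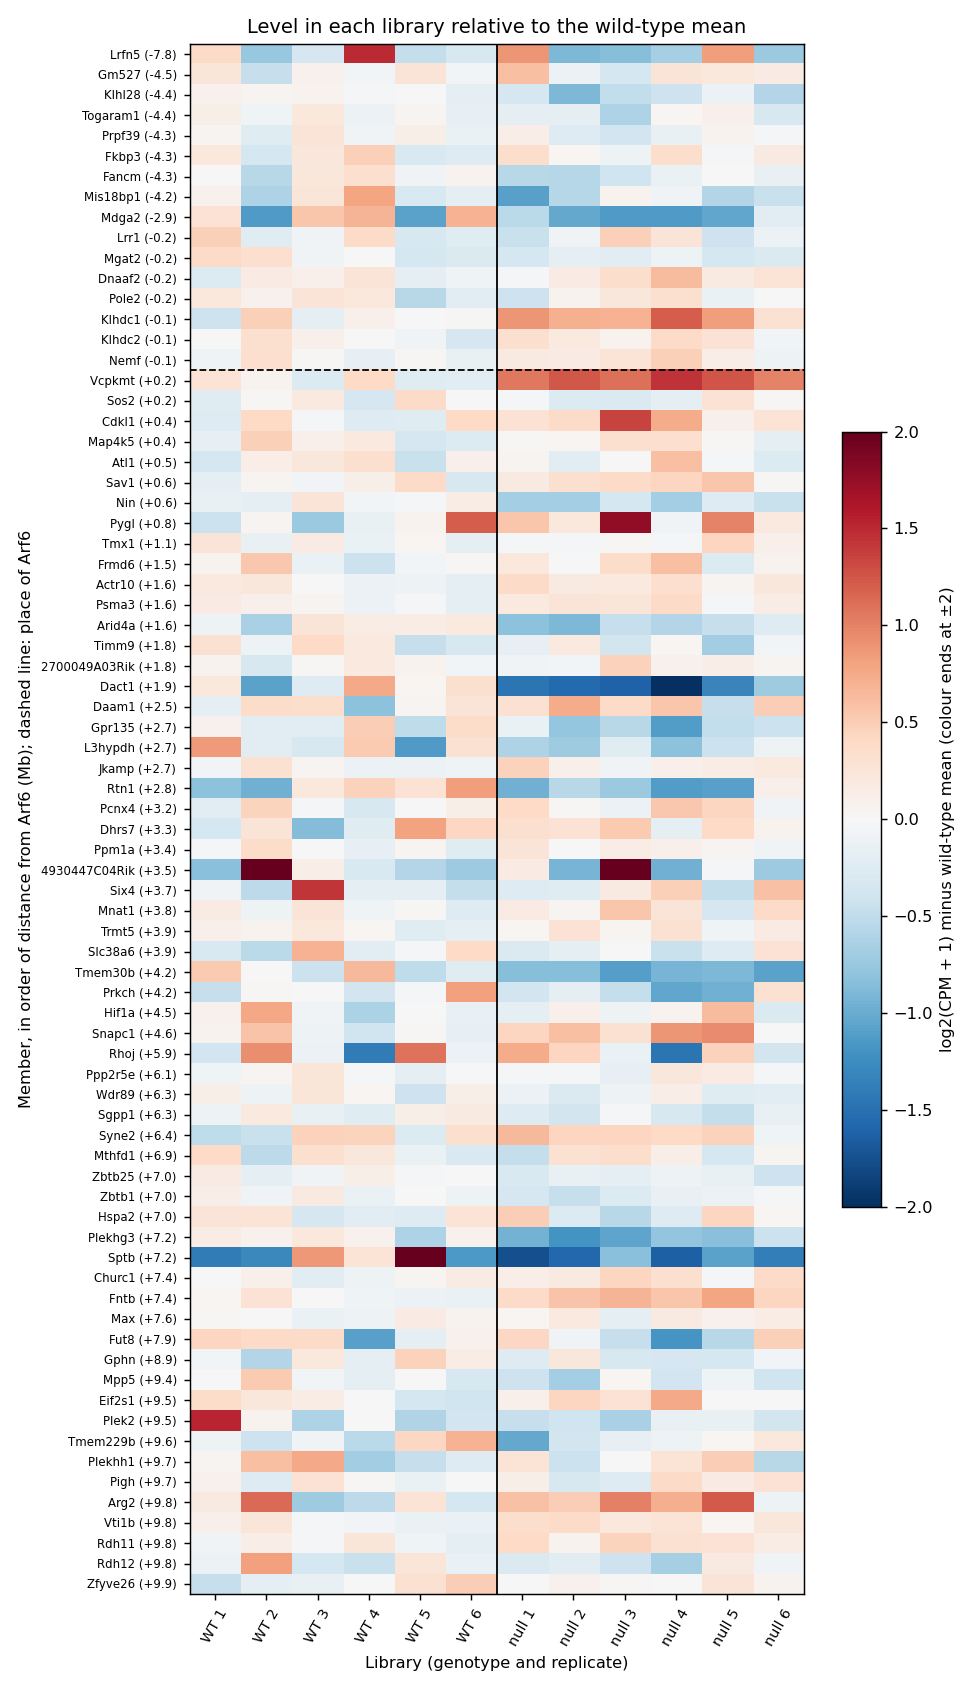
Level of 76 of the 79 genes (rows, in order along the chromosome, with the distance from Arf6 in Mb) in each of the 12 libraries (columns), as log2(CPM + 1) minus the mean of the wild-type libraries, where red is higher, blue is lower and the colour ends at 2. The row of Vcpkmt is red in all 6 Arf6-null libraries and the rows of Nin, Tmem30b and Plekhg3 are blue in them. Sptb is highest in wild-type replicate 5, at 30.9 CPM.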

How the data were processed

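Bulk RNA-seq of 12 mouse melanoma tumors, 6 wild type and 6 Arf6-null by the genotype in the labels, was analysed from 1 deposited table of raw counts of reads per gene. Extraction used a Direct-zol kit and library preparation a TruSeq Stranded mRNA kit, per the labels' protocols. The submitters' processing notes name STAR 2.7.3a, featureCounts 1.6.3, DESeq2 1.26.0 and the build GRCm38 (mm10). How strand and multimapping reads were handled, and which annotation was counted, is not given in the sources used here, so reads of overlapping genes cannot be told apart. Columns were matched to samples by library number. Symbols, biotypes and coordinates came from GENCODE M21, which held 55141 of 55487 identifiers.

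Genes were filtered with filterByExpr, TMM-scaled and tested in edgeR 4.0.16 by the robust quasi-likelihood F test (R 4.3.3, limma 3.58.1, DESeq2 1.42.0). Benjamini-Hochberg adjustment covered the 16225 genes tested, calls were made at 0.05, and the SE was derived from the F statistic. CPM use the scaled library sizes. On simulated counts for this comparison (16031 genes, 197 changed) the test called 46.4% of 2-fold and 82.0% of 4-fold changes, with 1 false call. Each gene was drawn independently there, without differences in tissue content that many genes share, such as the muscle content of some libraries. These rates therefore do not give the error rate in the tumors. Named genes are all members past the threshold, the 12 nearest to Arf6, the 2 with the smallest p of each of 9 functional lists and the 3 with the highest CPM per kb. Every other gene named with a value was chosen after its values were seen. Alternatives were other scalings and filters, thinned counts, limma-voom, DESeq2, another threshold or window, each library left out, and muscle or Y-linked scores (the mean log2 CPM of the markers) as a covariate. Values of 3 flanking genes are not reported here. Distance is between gene starts, the lower coordinate. Members and lists were chosen with earlier results of these data known.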

Additional observations from a re-analysis of the deposited data

Results flagged for a closer look

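Single libraries standing apart from their genotype were looked for in 54 sets of 6 values, the library totals and the 26 named genes on the log2(CPM + 1) scale in each genotype. Such a library was found in 1 of the 54 sets. Chance alone gives about 1 set in 20, so the number of sets found is no more than chance gives. That number does not take in how far the library stood apart, and whether its value arose by chance was not tested. The value of Plekhg3 in wild-type replicate 5 was 5.40, and the remaining 5 wild-type values lay between 6.11 and 6.23. That library also had 1850.1 CPM of muscle markers, and its part in this value was not tested. Without it Plekhg3 had a log2 fold change of -0.99 (edgeR adjusted p = 0.00760).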

How the results depend on the processing

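Of 572 recomputed values of the 26 named genes (22 fits), 493 kept direction and side of the threshold, 43 lost the call, 7 gained one and 29 changed sign. The causes were not tested. Against 5 members of 186 genes called (2, 0, 1, 2 in the bins of distance, nearest first), the numbers moved as follows. DESeq2 gave 12 members of 2215 genes called (3, 2, 3, 4 in the 4 bins), and limma-voom 9 members of 931 genes called (3, 2, 2, 2 in the 4 bins). A threshold of 0.1 gave 10 members of 1359 genes called (3, 2, 2, 3 in the 4 bins), and a further limit of 2-fold 2 members of 106 genes called (1, 0, 1, 0 in the 4 bins). The Y-linked covariate gave 2 members of 31 genes called (1, 0, 1, 0 in the 4 bins), the muscle covariate 0 members of 13 genes called (0, 0, 0, 0 in the 4 bins), and the fit without the muscle-rich libraries 1 member of 35 genes called (1, 0, 0, 0 in the 4 bins). With no filter 4 members of 127 genes called (1, 0, 1, 2 in the 4 bins). Windows of 5 and 2 Mb on each side held 3 called members of 50 and 2 of 24, where 1.15% of all tested genes were called. Leaving out 1 library gave 1 to 9 members of 25 to 766 genes, and 1 to 3, 0 to 2, 0 to 2 and 0 to 2 in the bins. It was 1 member without wild-type replicate 1, 3, 4 or 6 or Arf6-null replicate 1, 2 or 4 (27, 37, 35, 27, 25, 35 and 69 genes), 4 without Arf6-null replicate 3 or 5 (122 and 154 genes), 9 and 6 without wild-type replicates 2 and 5 (766 and 537 genes) and 8 without Arf6-null replicate 6 (672 genes). Both other scalings, the filter of 10 counts in 6 libraries and thinning kept 5 members. Upper-quartile scaling moved the median of all genes to -0.08 from -0.03.

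Signs changed for 6 of the 26 named genes, none of which passed. Pole2 was at -0.051 with upper-quartile scaling, -0.063 with the Y-linked covariate, -0.014 with thinned counts, -0.055 with limma-voom and, leaving out 1 library, from -0.096 to 0.086. Hif1a was at -0.037, -0.13 and -0.00287 with the first 3 of these, -0.25 with the muscle covariate, -0.21 without the muscle-rich libraries and from -0.13 to 0.21 leaving out 1 library. Sos2 was at 0.035 and 0.024 with the covariates, 0.027 without the muscle-rich libraries and from -0.17 to 0.0056 leaving out 1 library. Map4k5 was at -0.062 with the Y-linked covariate, Sptb at 0.30 with the muscle covariate, and Lrr1 from -0.25 to 0.088 leaving out 1 library. No paired analysis was possible because the labels give no number or animal shared between a wild-type and an Arf6-null tumor. Tmem30b, with 24 counts over the Arf6-null libraries, is limited by depth.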
